A study of Mus musculus with 6 samples.

Results

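The PD-1, CTLA-4 and CD28 family axis was followed here as 9 genes chosen by symbol: the receptor genes Pdcd1, Ctla4, Cd28 and Icos, and the ligand genes Cd274, Pdcd1lg2, Cd80, Cd86 and Icosl. They are 9 of 21154 genes tested. Each was read by a single transcript cluster (a set of array probes for 1 gene), and the authors' deposited table calls all 9 expressed in anti-PD-1 tumours and in control tumours. RNA came from 3 tumours of mice given an antibody against PD-1 and from 3 control tumours, each read on its own Clariom S Mouse array. All tumours grew under the skin of the flank from 1000000 KLN205 cells, a mouse lung squamous carcinoma line, placed with Matrigel. Antibody was given into the peritoneum at 250 µg once in 3 days. The control samples are labelled as lacking anti-PD-1, and the treatment protocol names an IgG2a isotype antibody as its counterpart. The series text speaks of cells alive 7 days after treatment, whereas the sample labels describe tumour tissue, which holds host cells as well. Strain, sex and age of the mice are not given in the sources used here, nor is it said that each tumour came from its own mouse, so the p-values below speak only of the spread among these arrays, which may be technical.

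A T cell is switched on by its antigen receptor together with CD28, which binds CD80 and CD86 on antigen-presenting cells. CTLA-4, made by activated and regulatory T cells, binds the same ligands more tightly and withholds them from CD28. PD-1 appears on activated T cells and, once bound by PD-L1 (Cd274) or PD-L2 (Pdcd1lg2), recruits phosphatases that damp signalling from the antigen receptor and CD28. ICOS is a further costimulatory receptor of activated T cells, and its ligand ICOSL is made by B cells, other antigen-presenting cells and endothelium. In tumours PD-L1 can be made by the tumour cells and by infiltrating myeloid cells, and interferon gamma induces it.

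None of the 9 genes differed between anti-PD-1 and control tumours past the adjusted threshold of 0.05 by limma, where 0.00473% of all genes passed. At unadjusted p under 0.05 there was 1 of 9, Icosl, which was lower in anti-PD-1 tumours, beside 9.70% of all genes in either direction and 4.52% in the lower and 5.18% in the higher direction. The groups overlapped in all 9 genes, while 8.82% of all genes lay wholly higher and 7.76% wholly lower in anti-PD-1 tumours. Among the members, a log2 difference above 0 was found for 5 members and one below 0 for 4, with a median of 0.063 against 0.020 over all genes. The control tumours were widely spread in these genes. The control SD exceeded the anti-PD-1 SD in 9 of 9 members and in 64.7% of all genes. It was over 1 log2 unit in 6 of 9 members and in 10.7% of all genes, whereas the anti-PD-1 SD was over 1 in none of the 9 and in 1.80% of all genes.

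Array medians lay between 7.04 and 7.13 in log2 signal, the authors' normalized scale. Correlations across genes were 0.907 to 0.936 between control replicate 3 and each of the other arrays, and 0.973 to 0.987 among those others. Control replicate 3 had the highest mean over 8 fat markers, 15.16, against 6.24 to 10.76 elsewhere. The mean over 11 markers of squamous tumour cells was 14.43, 15.55 and 14.34 in anti-PD-1 tumours, against 13.19, 9.37 and 12.36 in control replicates 2, 3 and 4. It was higher in every anti-PD-1 tumour than in every control, with 11 of 11 markers above 0, 8 of them at unadjusted p under 0.05 and 0 past the adjusted threshold by limma. Control replicate 3 was the lowest array for 7 of 9 members, a position it held in 28.0% of all genes. Control replicate 4 was the highest for 7 of 9, a position it held in 14.2% of all genes. For the 9 genes the differences are therefore given with and without control replicate 3, and the lists with the range over arrays left out in turn. The part of tissue content in these values was not tested. In whole tumour RNA, fewer cells of a type and less RNA per cell cannot be told apart.

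**Figure D1:**
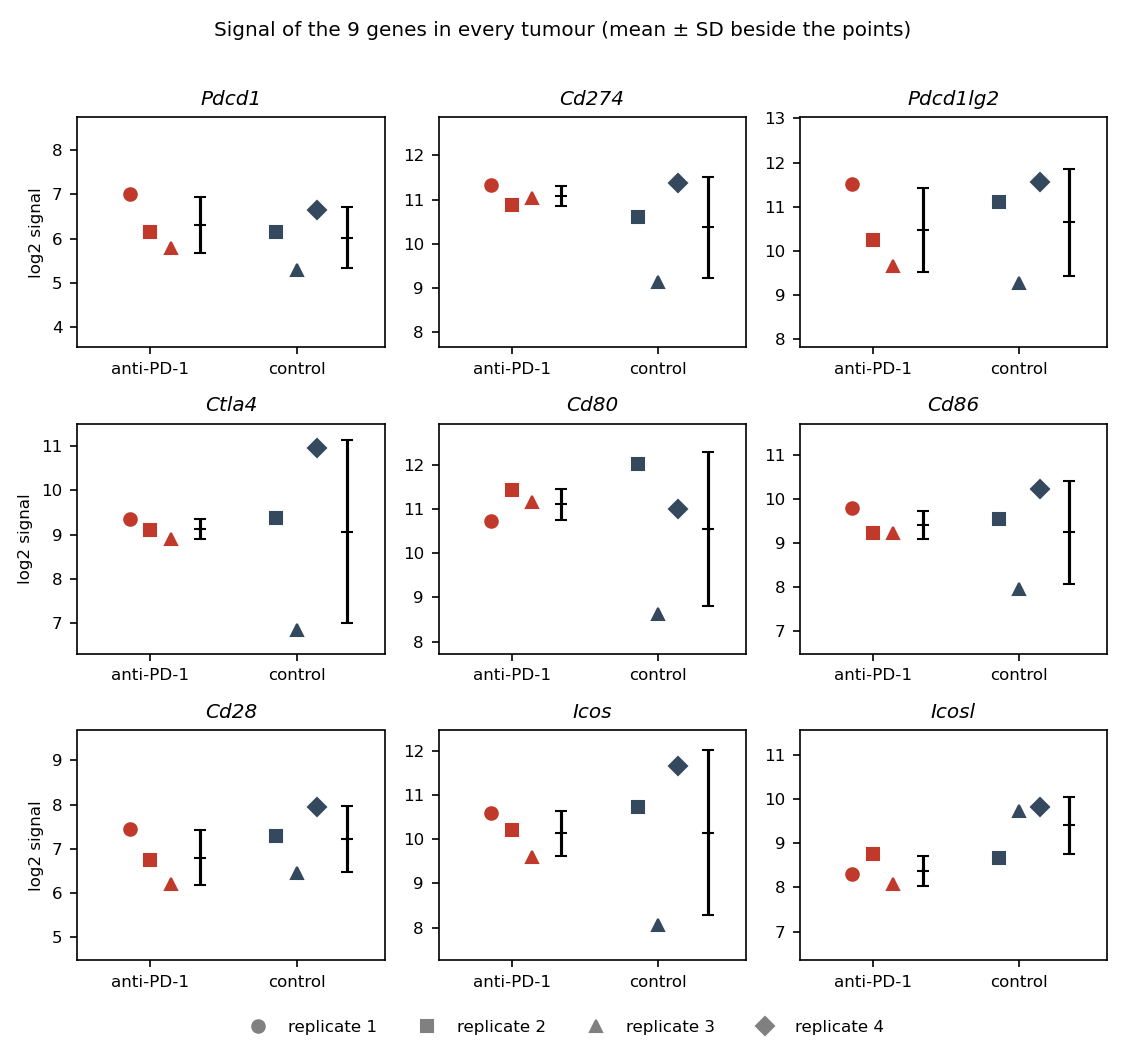
Log2 signal (vertical axis, the same span in every panel) of the 9 genes in anti-PD-1 tumours (red) and control tumours (dark blue), with marker shapes for the replicate numbers of the labels and, beside the points, the mean and SD of 3 arrays. The anti-PD-1 values of Ctla4 lie within 0.45 of each other, while the controls span 4.10.

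The PD-1 ligand genes lie next to each other on chromosome 19 (mm10, the build of the array annotation), Cd274 at 29367438 to 29388095 and Pdcd1lg2 at 29410919 to 29472927, with 22.8 kb between their clusters. Cd28 (60716800 to 60773359), Ctla4 (60887000 to 60915832) and Icos (60977914 to 61000321) follow one another on chromosome 1, all on the plus strand. Pdcd1 lies elsewhere on chromosome 1 (94038305 to 94052553, minus strand). Cd80 (38455561 to 38496334) and Cd86 (36603869 to 36666081) are on chromosome 16, and Icosl (78069360 to 78079525) is on chromosome 10. RefSeq promoters of build GRCm38.p6, from 250 bases before to 50 after the gene start, were matched by symbol for 6 of the 9 genes, and not for Cd28, Cd86 and Icos. The promoters of the PD-1 receptor and its ligands, of Ctla4, whose controls were the most spread, and of Icosl, which had the smallest p, are shown 5′ to 3′ along the gene's strand. Capitals mark matches to the motifs named after them.
Pdcd1 (chr1:94052504-94052803, minus strand): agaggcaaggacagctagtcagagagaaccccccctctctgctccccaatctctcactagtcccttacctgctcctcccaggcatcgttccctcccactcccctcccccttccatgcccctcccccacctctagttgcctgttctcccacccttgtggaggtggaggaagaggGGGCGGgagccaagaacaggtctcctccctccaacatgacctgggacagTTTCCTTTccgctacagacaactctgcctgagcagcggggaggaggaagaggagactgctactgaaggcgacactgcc
Cd274 (chr19:29367188-29367487, plus strand): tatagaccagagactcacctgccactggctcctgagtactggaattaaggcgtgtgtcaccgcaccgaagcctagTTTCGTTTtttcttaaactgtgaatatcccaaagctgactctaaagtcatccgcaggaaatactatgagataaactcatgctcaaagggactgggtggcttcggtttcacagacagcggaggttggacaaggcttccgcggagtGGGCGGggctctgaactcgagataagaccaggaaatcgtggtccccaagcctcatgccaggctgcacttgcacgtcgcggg
Pdcd1lg2 (chr19:29410669-29410968, plus strand): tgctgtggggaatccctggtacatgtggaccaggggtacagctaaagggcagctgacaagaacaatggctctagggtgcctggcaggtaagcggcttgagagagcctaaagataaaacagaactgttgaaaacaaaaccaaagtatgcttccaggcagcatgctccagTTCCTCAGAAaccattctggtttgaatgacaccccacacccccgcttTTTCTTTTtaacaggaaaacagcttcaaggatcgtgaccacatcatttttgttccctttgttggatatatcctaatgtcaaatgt
Ctla4 (chr1:60908775-60909074, plus strand): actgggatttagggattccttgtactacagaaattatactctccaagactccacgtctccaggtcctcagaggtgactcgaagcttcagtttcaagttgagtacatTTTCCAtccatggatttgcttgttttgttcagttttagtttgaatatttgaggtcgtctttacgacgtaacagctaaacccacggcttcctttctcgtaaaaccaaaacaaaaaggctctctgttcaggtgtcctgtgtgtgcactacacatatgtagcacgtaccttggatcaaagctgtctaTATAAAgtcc
Icosl (chr10:78069118-78069417, plus strand): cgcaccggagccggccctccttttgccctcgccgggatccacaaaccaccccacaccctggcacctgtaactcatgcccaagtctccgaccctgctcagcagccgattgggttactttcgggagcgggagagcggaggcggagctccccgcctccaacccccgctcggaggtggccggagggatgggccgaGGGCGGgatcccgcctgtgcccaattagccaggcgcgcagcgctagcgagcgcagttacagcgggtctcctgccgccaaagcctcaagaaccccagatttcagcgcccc

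Motifs were searched on both strands in the 6 matched promoters and in all 32851 promoters of the table, and none of the matches overlapped another. The interferon regulatory factor core AANNGAAA was found in Pdcd1, Cd274, Pdcd1lg2 and Cd80, 4 of 6 members, and in 23.9% of all promoters. In Cd274 it starts at position -175 from the gene start. The STAT6 motif, TTC and GAA with 4 bases between them, was found in Pdcd1lg2 alone among the 6, at position -82, and in 6.95% of all promoters. The gamma-activated site TTCNNNGAA was found in 0 of 6 members and in 8.30% of all promoters. The NFAT core TGGAAA was found in Ctla4 and in 21.4% of all promoters, the AP-1 motif TGANTCA in Cd80 and in 7.81%. The GC box GGGCGG was found in Pdcd1, Cd274 and Icosl and in 35.7%, and the letters TATAAA in Ctla4 and Cd80 and in 13.6%, in Ctla4 at position 40 after the annotated start. The window of Icosl was 68.0% G and C with 26 CG pairs, that of Cd274 52.7% with 15, and that of Pdcd1lg2 46.0% with 3. A match here is a run of letters, not a shown binding site.

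Pdcd1, the gene of the receptor that the antibody blocks, had log2 signals of 7.00, 6.14 and 5.78 in anti-PD-1 replicates 1, 2 and 3, against 6.14, 5.28 and 6.65 in control replicates 2, 3 and 4. The highest value was in anti-PD-1 replicate 1 and the lowest in control replicate 3, and the remaining values of the groups were interleaved. The means were 6.31 ± 0.63 in anti-PD-1 and 6.02 ± 0.69 in control tumours (SD, n = 3 each), so that anti-PD-1 minus control was 0.28 ± 0.45 in log2 (SE; limma adjusted p of 0.824). The 95% interval ran from -0.79 to 1.35. Without control replicate 3 the difference was -0.088, and without control replicate 4 it was 0.60.

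Cd274 encodes PD-L1. Its signals were 11.32, 10.88 and 11.03 in anti-PD-1 tumours, against 10.61, 9.13 and 11.38 in control replicates 2, 3 and 4. The anti-PD-1 values were close together, and all lay between the low control replicates 2 and 3 and the high control replicate 4. The means were 11.08 ± 0.22 and 10.37 ± 1.14 (anti-PD-1 and control, SD, n = 3 each), and the difference of 0.70 ± 0.55 (SE) had an adjusted p of 0.638 by limma. Its 95% interval was -0.59 to 2.0. The difference was 0.082 without control replicate 3 and 1.21 without control replicate 4.

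Pdcd1lg2 encodes PD-L2, a ligand found mainly on dendritic cells and macrophages. It read 11.51, 10.24 and 9.66 in anti-PD-1 replicates 1, 2 and 3, against 11.12, 9.28 and 11.56 in control replicates 2, 3 and 4. In each group some tumours were high and some low, so that the spread was wide on both sides. The means were 10.47 ± 0.95 in anti-PD-1 and 10.65 ± 1.21 in control tumours (SD, n = 3 each), a difference of -0.18 ± 0.70 (SE; limma adjusted p of 0.936). The difference was -0.87 without control replicate 3 and 0.27 without control replicate 4.

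Within each tumour the log2 signal of Cd274 was set against that of Pdcd1lg2, which compares tumours but says nothing of which ligand was more abundant. Cd274 minus Pdcd1lg2 was -0.19, 0.64 and 1.37 in anti-PD-1 replicates 1, 2 and 3, against -0.51, -0.15 and -0.18 in control replicates 2, 3 and 4. Anti-PD-1 replicates 2 and 3 lay above all controls, and anti-PD-1 replicate 1 lay among them. The mean difference between groups was 0.89, with an exact two-sided permutation p of 0.3, or 0.8 after adjustment over 3 such pairs, where the smallest p that 3 arrays against 3 can give is 0.1. It stayed above 0 without each array in turn, from 0.505 to 1.285.

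Ctla4 encodes the inhibitory receptor that competes with CD28. It read 9.36, 9.10 and 8.91 in anti-PD-1 tumours, against 9.38, 6.85 and 10.95 in control replicates 2, 3 and 4. The anti-PD-1 tumours were alike, while the controls held both the lowest and the highest value, 4.10 log2 units apart. The means were 9.12 ± 0.23 in anti-PD-1 and 9.06 ± 2.07 in control tumours (SD, n = 3 each), a difference of 0.063 ± 0.94 (SE; limma adjusted p of 0.983). The 95% interval ran from -2.17 to 2.29. The difference was -1.04 without control replicate 3 and 1.01 without control replicate 4.

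Cd80, a ligand of both CD28 and CTLA-4 that also binds PD-L1 on the same cell, read 10.73, 11.43 and 11.16 in anti-PD-1 tumours, against 12.01, 8.63 and 11.00 in control replicates 2, 3 and 4. Control tumours held both its highest value, in control replicate 2, and its lowest, in control replicate 3. The means were 11.11 ± 0.35 and 10.55 ± 1.74 (anti-PD-1 and control, SD, n = 3 each), with a difference of 0.56 ± 0.80 (SE) and an adjusted p of 0.808 by limma. It was -0.40 without control replicate 3 and 1.29 without control replicate 2.

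Cd86, the partner ligand of Cd80 on antigen-presenting cells, read 9.78, 9.23 and 9.22 in anti-PD-1 tumours, against 9.55, 7.96 and 10.22 in control replicates 2, 3 and 4. The anti-PD-1 values lay inside the control range. The means were 9.41 ± 0.32 and 9.24 ± 1.16 (anti-PD-1 and control, SD, n = 3 each), a difference of 0.17 ± 0.56 (SE; limma adjusted p of 0.927). It was -0.475 without control replicate 3 and 0.655 without control replicate 4. Cd80 minus Cd86 within each tumour was 0.95, 2.20 and 1.94 in anti-PD-1 tumours, against 2.46, 0.67 and 0.78 in control replicates 2, 3 and 4. The groups overlapped, with an exact two-sided permutation p of 0.7 (0.8 adjusted over the 3 pairs). The group difference of 0.39 was 0.077 without control replicate 3, 0.13 without control replicate 4 and 0.97 without control replicate 2.

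Cd28, the main costimulatory receptor of T cells, read 7.44, 6.74 and 6.2 in anti-PD-1 tumours, against 7.28, 6.46 and 7.95 in control replicates 2, 3 and 4. Its lowest value was in anti-PD-1 replicate 3, and the groups overlapped. The means were 6.79 ± 0.62 and 7.23 ± 0.75 (anti-PD-1 and control, SD, n = 3 each), a difference of -0.44 ± 0.47 (SE; limma adjusted p of 0.732). Cd28 and Icosl were the members whose difference stayed below 0 when each array was left out in turn, for Cd28 from -0.82 without control replicate 3 to -0.077 without control replicate 4. Ctla4 minus Cd28 within each tumour was 1.92, 2.36 and 2.71 in anti-PD-1 tumours, against 2.10, 0.39 and 3.0 in control replicates 2, 3 and 4 (exact two-sided permutation p of 0.8, also 0.8 adjusted over the 3 pairs). The group difference of 0.50 was -0.22 without control replicate 3 and 1.085 without control replicate 4.

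Icos read 10.60, 10.21 and 9.59 in anti-PD-1 tumours, against 10.73, 8.07 and 11.65 in control replicates 2, 3 and 4. As for Ctla4, the controls held the extremes. The means were 10.13 ± 0.51 in anti-PD-1 and 10.15 ± 1.86 in control tumours (SD, n = 3 each), a difference of -0.017 ± 0.87 (SE; limma adjusted p of 0.996). Without control replicate 3 it was -1.06 (limma unadjusted p of 0.0302, adjusted 0.556), and without control replicate 4 it was 0.73. Icos was the 1 member of 9 at unadjusted p under 0.05 without control replicate 3, beside 8.61% of all genes in either direction and 4.57% in the lower direction. Without control replicate 3 all 3 anti-PD-1 values of Icos and of Ctla4 lay below both remaining controls, as did 11.8% of all genes.

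Icosl, the gene of the ICOS ligand, had the smallest p of the 9. It read 8.31, 8.75 and 8.08 in anti-PD-1 replicates 1, 2 and 3, against 8.67, 9.72 and 9.82 in control replicates 2, 3 and 4. Control replicates 3 and 4 lay well above all anti-PD-1 tumours, while control replicate 2 lay just below anti-PD-1 replicate 2. The means were 8.38 ± 0.34 in anti-PD-1 and 9.40 ± 0.64 in control tumours (SD, n = 3 each), a difference of -1.02 ± 0.37 (SE), or 0.492-fold, with a 95% interval of -1.89 to -0.15. The unadjusted p was 0.0274, rank 1123 of 21154 genes, and the adjusted p was 0.506 by limma. The difference did not pass. Unlike 7 of the other members, Icosl was high in control replicate 3.
The difference stayed between -1.39 and -0.815 when each array was left out in turn, and it was -0.865 without control replicate 3. The unadjusted p by limma was above 0.05 in 4 of these 6 repeats: 0.0741 when anti-PD-1 replicate 1 was left out, 0.0586 for control replicate 3, 0.0898 for anti-PD-1 replicate 3 and 0.0883 for control replicate 4. It was 0.0291 without anti-PD-1 replicate 2 and 0.00272 without control replicate 2 (adjusted p of 0.169), where 6.74% of all genes were lower at unadjusted p under 0.05. In the authors' deposited table Icosl carries a signed fold change of 2.67 for control over anti-PD-1, the opposite direction to that used here. Its p-value there was 0.0277, with an FDR of 0.509. The size differs too, since the authors' Icosl averages were 9.77 (control) and 8.35 (anti-PD-1), against means of 9.40 and 8.38 here. Their signed fold change put Ctla4 (1.03) and Cd86 (1.14) higher in controls, whereas the differences here were 0.063 and 0.17. The direction was shared for the other members, though for Pdcd1lg2 the authors' value was 1.87, beside 0.881-fold for anti-PD-1 over control here. How their averages were formed was not tested.

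Marker lists of cells that can carry ICOSL were read beside it. The mean log2 signal of 13 dendritic cell markers was 7.57, 7.42 and 7.25 in anti-PD-1 tumours, against 8.11, 7.75 and 8.56 in control replicates 2, 3 and 4. Of these, 2 of 13 had a difference above 0, and Clec9a was called not expressed in either group. The mean of 7 endothelial markers was 8.94, 8.71 and 8.13 in anti-PD-1 tumours, against 9.25, 11.14 and 9.72 in control tumours, with 0 of 7 above 0. Both list means were lower in each anti-PD-1 tumour than in each control. For macrophages and monocytes, also antigen-presenting cells, the groups overlapped. The mean of 12 such markers was 11.03 to 11.95 in anti-PD-1 and 11.32 to 12.46 in control tumours, with 3 of 12 above 0. The mean of 8 B cell markers was 4.73 to 5.09 in anti-PD-1 and 4.72 to 5.14 in control tumours, with 4 of 8 above 0, and Ms4a1, Cd79a, Pax5 and Fcmr called not expressed in anti-PD-1, Pax5 and Fcmr in control tumours. Lower values were not particular to the dendritic cell and endothelial lists. The mean of 6 fibroblast markers was 15.04, 15.10 and 13.99 in anti-PD-1 tumours, against 14.88, 16.20 and 16.24 in control replicates 2, 3 and 4. Of these 0 of 6 were above 0, as were 0 of 8 fat markers, whereas the squamous tumour list was higher by 3.13. The part of any of these cells in the Icosl values was not tested.

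**Figure D2:**
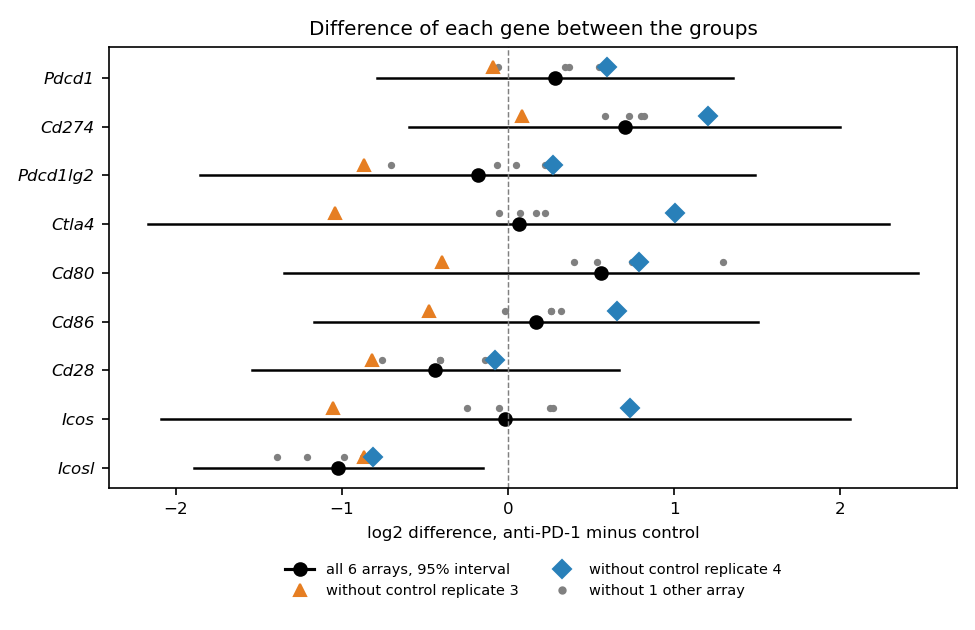
Log2 difference, anti-PD-1 minus control (horizontal axis), of each gene from the fit over all 6 arrays (black point) with its 95% interval (line), and the same difference with 1 array left out (small symbols above). The interval crosses 0 for 8 of the 9 genes, and for Ctla4 the difference is -1.04 without control replicate 3 and 1.01 without control replicate 4.

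Leaving out control replicate 3 turned the sign of 4 of the 9 members, Pdcd1, Ctla4, Cd80 and Cd86, as it did for 16.7% of all genes. With that array left out 8 of 9 members had a difference below 0, beside 47.9% of all genes, and Cd274 was the exception at 0.082. That array was the lowest for 7 of 9 members but in 28.0% of all genes. Its removal lowers the difference of such genes by construction, so the 2 shares are not a like comparison. Without control replicate 4, only Cd28 (-0.077) and Icosl (-0.815) were below 0. None passed the adjusted threshold in the fit without control replicate 3, where 4 genes of all tested did. The lowest adjusted p of any member under any alternative was 0.169, for Icosl.

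The receptors are made mainly by T cells, so their signals were set beside T cell markers. The mean log2 signal of 12 measured T cell markers was 7.56, 7.20 and 6.90 in anti-PD-1 tumours, against 7.27, 6.825 and 8.22 in control replicates 2, 3 and 4. A difference above 0 was found for 4 of these 12, and Zap70 was called not expressed in anti-PD-1 tumours. The list mean was highest in control replicate 4 and, narrowly, lowest in control replicate 3, the arrays in which Ctla4 and Icos were highest and lowest. Single markers did not share this low point. Cd3e, Cd247, Cd2, Cd8b1 and Thy1 were lowest in control replicate 3. Cd3d, Cd5 and Cd8a were lowest in anti-PD-1 replicate 3, and Cd3g, Cd4, Zap70 and Tcf7 in other arrays. The mean of 12 macrophage and monocyte markers, cells that carry CD80, CD86 and both PD-1 ligands, was 11.95, 11.31 and 11.03 in anti-PD-1 tumours, against 11.85, 11.32 and 12.46 in control tumours. A difference above 0 was found for 3 of these 12, and all were called expressed in both groups. The part of T cell and myeloid content in the members' values was not tested by these list means.

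**Figure D3:**
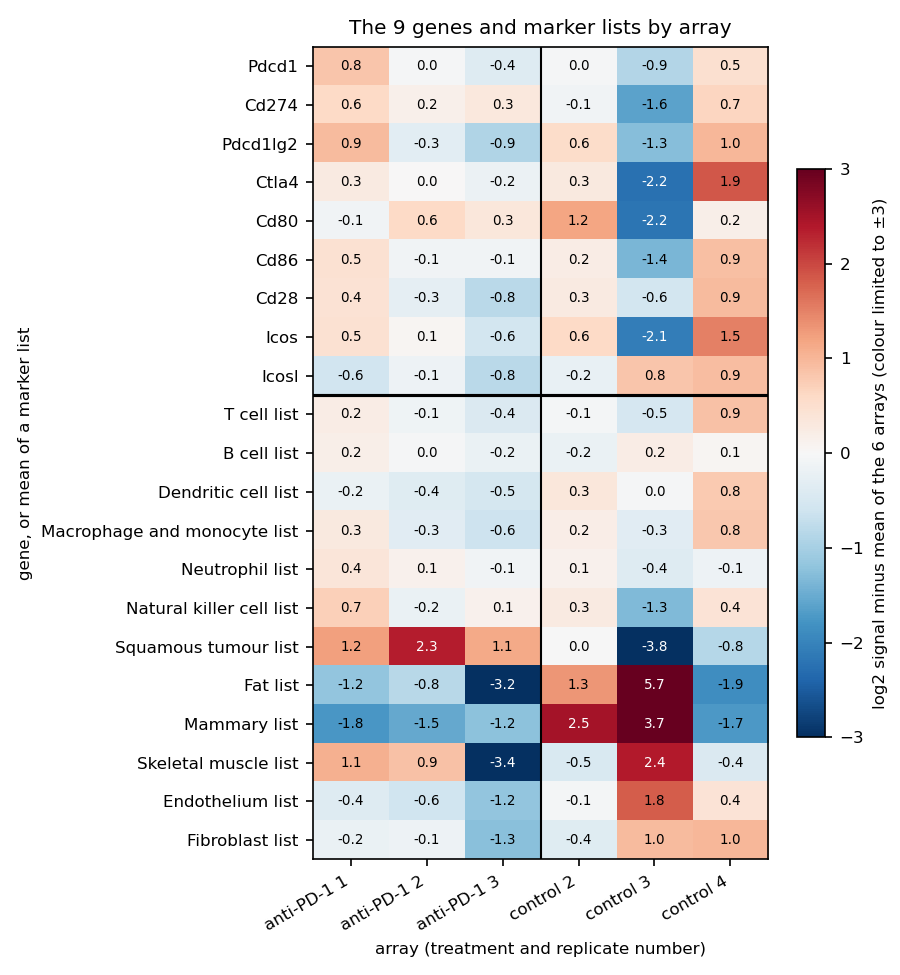
Log2 signal of the 9 genes (upper rows) and mean log2 signal of marker lists (lower rows), each minus its own mean over the 6 arrays, with anti-PD-1 arrays on the left and control arrays on the right. Control replicate 3 is the lowest array for 7 of the 9 genes and has the highest mean of the fat list, 15.16.

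For the 4 receptors the mean of the CD3 chain genes Cd3d, Cd3e and Cd3g, parts of the T cell antigen receptor complex, was subtracted within each tumour. The result compares tumours, not the abundance of different genes. Pdcd1 minus the CD3 mean was -0.83, -1.45 and -1.12 in anti-PD-1 replicates 1, 2 and 3, against -1.36, -1.63 and -1.99 in control replicates 2, 3 and 4. Anti-PD-1 replicates 1 and 3 were above all controls, and anti-PD-1 replicate 2 was below control replicate 2. The group means differed by 0.53 (-1.13 ± 0.31 in anti-PD-1 and -1.66 ± 0.31 in control tumours, SD, n = 3 each), with an exact two-sided permutation p of 0.2 (0.8 adjusted over the 4 receptors). It stayed between 0.36 and 0.68 when each array was left out in turn. The CD3 chains themselves differed unequally between groups, by -0.62 for Cd3e, -0.29 for Cd3d and 0.17 for Cd3g. The size of each receptor's difference thus depends on the chains used. With the 11 T cell markers called expressed in both groups as the reference, that of Pdcd1 was 0.49. The exact two-sided permutation p was then 0.1 before adjustment, the smallest that 3 arrays against 3 can give.
Ctla4 minus the CD3 mean was 1.53, 1.51 and 2.01 in anti-PD-1 tumours, against 1.88, -0.063 and 2.31 in control replicates 2, 3 and 4. Icos minus the CD3 mean was 2.77, 2.62 and 2.69 in anti-PD-1 tumours, against 3.23, 1.16 and 3.01 in control replicates 2, 3 and 4. Control replicate 3 was thus low in both genes relative to its own CD3 chains as well. Cd28 minus the CD3 mean was -0.39, -0.85 and -0.70 in anti-PD-1 tumours, against -0.22, -0.45 and -0.69 in control tumours, where control replicate 3 was in the middle. The exact two-sided permutation p was 0.9 for Ctla4, 1 for Icos and 0.4 for Cd28. Without control replicate 3 the group difference was -0.41 for Ctla4 and -0.43 for Icos, against 0.31 and 0.23 over all arrays.

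**Figure D4:**
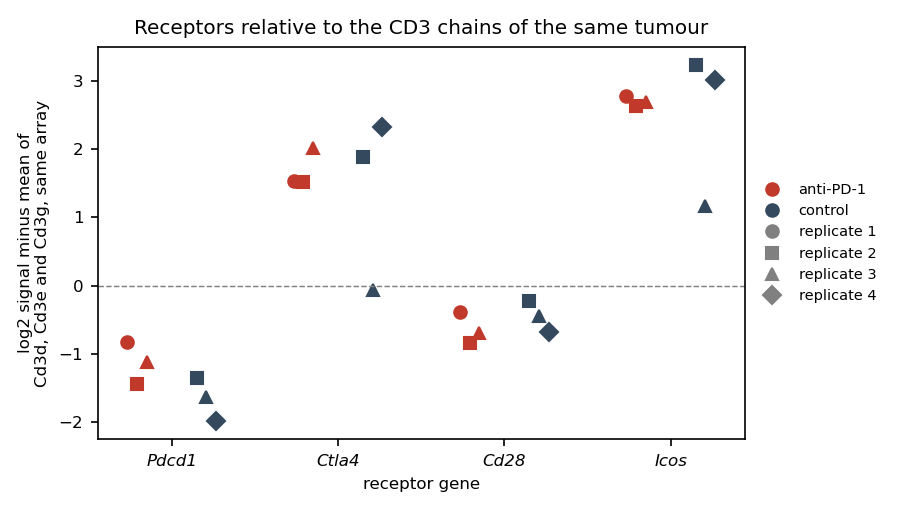
Log2 signal of each receptor gene minus the mean of Cd3d, Cd3e and Cd3g on the same array (vertical axis), for anti-PD-1 tumours (red, left in each pair) and control tumours (dark blue, right). Control replicate 3 (triangle) is at -0.063 for Ctla4 and 1.16 for Icos, below the other tumours.

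The members that followed each other most closely over the 6 arrays were Ctla4 and Icos, with a root mean square distance of 0.26 between their mean-centred log2 values, and Cd274 and Cd86 with 0.28. Icosl was farthest from Cd80, at 1.52. The neighbours Cd274 and Pdcd1lg2 were 0.64 apart. Distances were also taken to each of 18967 other genes, predicted genes left out, and the nearest 3 are named for each member. They were Serpina3f, Lilr4b and Fgr for Pdcd1 (0.097 to 0.14), Slc23a2, Plxnb2 and Gvin1 for Cd274 (0.098 to 0.14) and Sema7a, Amica1 and Itgb2 for Pdcd1lg2 (0.18 to 0.27). For Ctla4 they were Mybl1, Mx1 and Serpina3g (0.21 to 0.23), and for Icos Tfpi2, Serpina3g and Igfbp3 (0.14 to 0.23). For Cd28 they were Lcp1, Il10ra and Cd3d (0.12 to 0.14), and for Icosl Crim1, Cd209c and Il17rd (0.12 to 0.15). Slfn2, Gsap and Rnf213 were nearest to Cd86 (0.050 to 0.10), and Itga2, Slc19a2 and Gdpd5 to Cd80 (0.21 to 0.23). Itgb2, a leukocyte integrin chain, Lcp1, a leukocyte actin-bundling protein, and the CD3 chain Cd3d are leukocyte genes, whereas Itga2 encodes an integrin chain also made by epithelia. The other nearest genes, among them Tfpi2 and Igfbp3 for Icos, were not sorted by cell type. Which cells gave the members' signals was not tested.

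Neighbouring genes were read at 2 loci, that of Cd274 and Pdcd1lg2 and that of Cd28, Ctla4 and Icos. Plgrkt, which starts beside Cd274 on the opposite strand, read 10.29, 9.27 and 10.09 in anti-PD-1 tumours, against 9.57, 9.53 and 9.97 in control replicates 2, 3 and 4. Ric1, on the far side of Pdcd1lg2, read 12.14, 11.90 and 11.66 in anti-PD-1 tumours, against 11.90, 12.29 and 12.13 in control replicates 2, 3 and 4, and was highest in the array where Cd274 and Pdcd1lg2 were lowest. Ermp1, beyond Ric1, and Abi2 and Pard3b, on either side of the chromosome 1 receptors, were also highest in control replicate 3, as were 26.0% of all genes. Nrp2, beyond Pard3b, was instead lowest there, with 9.83 in control replicate 3 below every other array. Raph1, before Cd28, differed by 0.10 between groups (unadjusted p of 0.644 by limma). These neighbours were looked at after the members' values had been seen.

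Genes that act with the axis were read from 8 lists, and 0 of their genes passed the adjusted threshold by limma. Over all 21154 genes the median log2 difference was 0.020, with 1095 higher and 956 lower at unadjusted p under 0.05. Of 11 measured genes of signalling just below PD-1 and the T cell receptor, 3 had a difference above 0 and 8 below, with a median of -0.29 (-0.755 without control replicate 3), and 2 were lower at unadjusted p under 0.05. These were Fyn, a kinase of the antigen receptor, at -0.89 ± 0.30 (SE), with 9.44, 8.87 and 8.66 in anti-PD-1 and 9.45, 10.15 and 10.04 in control tumours, and the adaptor gene Sh2d1a at -0.75, named after its value was seen. Ptpn11, which encodes the phosphatase SHP2 recruited by PD-1, differed by 0.17 (p of 0.481 by limma), and the adaptor Lat by 0.23.
Of 17 genes of CD28 signalling, 8 were above 0 and 9 below, with a median of -0.17 that was 0.12 without control replicate 4. Pik3r1, the regulatory subunit of the kinase that CD28 recruits, was at -1.63 (unadjusted p of 0.0485 by limma) and at -0.87 without control replicate 3, where it read 15.98. Bcl10, an adaptor on the way to NF-kB, had all anti-PD-1 values (9.17, 9.02 and 8.60) above the controls (8.55, 8.52 and 8.53), a difference of 0.40 with an unadjusted p of 0.117 by limma. Il2, a target of CD28 signalling, was called not expressed in either group. Of 7 genes of CTLA-4 trafficking and regulatory T cells, 3 were above 0, with a median of -0.020 (-0.205 to 0.135 with 1 array left out) and 0 at unadjusted p under 0.05. Lrba, which keeps CTLA-4 from being degraded, differed by -0.26 and Ap1m1, an adaptor subunit of vesicle sorting, by 0.073.

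Of 11 genes of interferon gamma signalling to Cd274, 6 were above 0 and 5 below, with a median of 0.12 (-0.275 without control replicate 3) and 0 at unadjusted p under 0.05 by limma. The receptor chain Ifngr1 was at -0.82 (unadjusted p of 0.0544 by limma), and at -0.56 without control replicate 3. Ifng itself read 7.41, 5.91 and 6.15 in anti-PD-1 and 6.93, 5.41 and 6.03 in control tumours, with overlap, a difference of 0.37 that was 0.010 without control replicate 3. Of 10 genes of PD-L1 handling and induction, 5 were above 0, with a median of 0.073 that was -0.11 without control replicate 3. Spop, an adaptor of PD-L1 degradation, differed by -0.35 with no overlap (p of 0.124 by limma) and Myc by 0.60. Cmtm6, which keeps PD-L1 at the cell surface, differed by -0.48.
Of 8 genes of interleukin 4 and STAT6 signalling, which induce PD-L2, 4 were above 0, with a median of 0.0083 (-0.29 to 0.16 with 1 array left out). Stat6 was at -0.27, with 12.59, 12.75 and 12.29 in anti-PD-1 tumours just below 12.79, 12.81 and 12.84 in control tumours. Retnla, a STAT6 target of macrophages, was at -6.27 ± 1.61 (SE), or -5.15 without control replicate 3, with an unadjusted p of 0.00627 and an adjusted p of 0.506 by limma, and Il13ra1 at 0.86, or 0.23 without control replicate 3. Il4 was called not expressed in either group.

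Of 10 further B7 and CD28 family genes, 3 were above 0 and 7 below, with a median of -0.35. Vsir, an inhibitory B7 relative also called VISTA, was at -1.06 with no overlap (unadjusted p of 0.0106), and Rgmb, a partner of PD-L2, at -0.46, with 8.37, 8.43 and 8.15 in anti-PD-1 and 8.59, 8.96 and 8.79 in control tumours. Cd276 was at 0.49, and at -0.14 without control replicate 3. Of 13 genes that control PD-1 and the exhausted or effector state of T cells, 5 were above 0 and 8 below, with a median of -0.11 that was -0.37 without control replicate 3 and 0.16 without control replicate 4. Irf4, a transcription factor gene, read 5.07, 4.60 and 4.63 in anti-PD-1 tumours, against 6.07, 7.18 and 6.46 in control replicates 2, 3 and 4. It was highest in control replicate 3, where the mean of the T cell list was lowest. Which cells gave the Irf4 signal was not tested. All anti-PD-1 values lay below all controls. The difference was -1.80 ± 0.33 (SE), with an unadjusted p of 0.000991 and an adjusted p of 0.506 by limma, and it stayed between -2.05 and -1.50 when each array was left out in turn. Tox, named after its value was seen, was the other gene of this list lower at unadjusted p under 0.05, at -1.43. Eomes, a transcription factor of effector T cells and natural killer cells, was at 2.06 and at 0.54 without control replicate 3, where it read 5.86. All its anti-PD-1 values lay above all controls (unadjusted p of 0.128 by limma). In the natural killer cell list, which holds Eomes, 3 of 6 markers had a difference above 0.

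**Figure D5:**
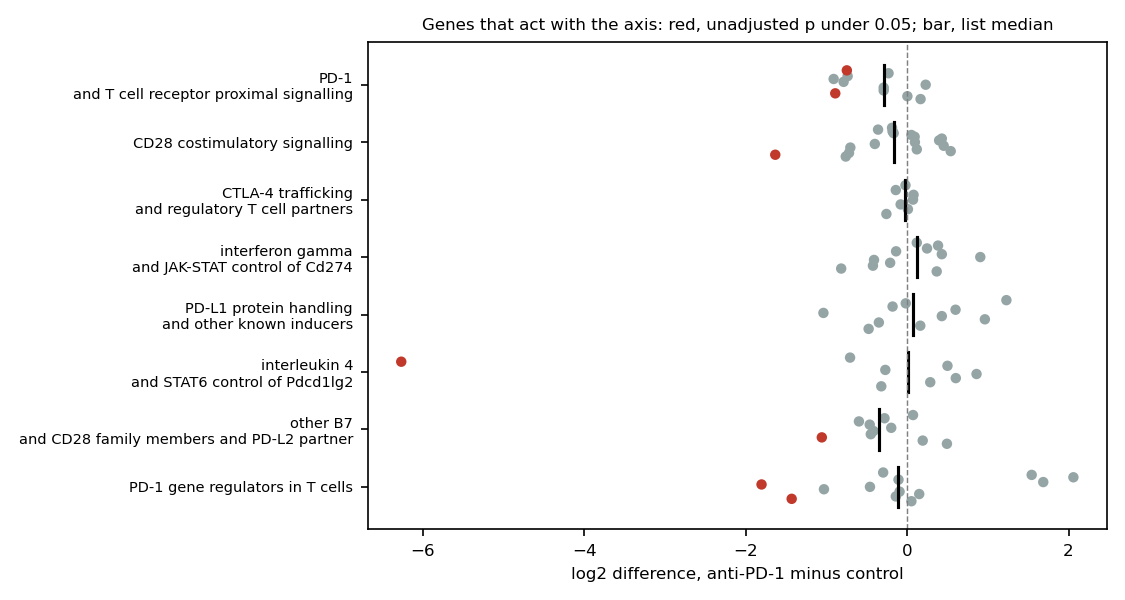
Log2 difference, anti-PD-1 minus control (horizontal axis), of each gene in 8 lists of genes that act with the axis, with genes at unadjusted p under 0.05 in red and the list median as a black bar. The medians lie between -0.35 and 0.12, and the gene farthest from 0 is Retnla at -6.27.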

How the data were processed

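Total RNA (250 ng per sample) was amplified and labelled with biotin, per the labels' protocols. The deposited log2 values are gene-level signals that the authors made with SST-RMA, which corrects background and normalizes between arrays, per the file headers. The software was the Transcriptome Analysis Console, per the submitters' processing notes. Beside these, the authors' deposited table gives log2 averages, SDs (a score per group), expressed calls, a signed fold change (a score) and a p-value with its FDR; their test is not named in those sources. The deposited series table of log2 signals held 0 differing values.

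Of 22206 clusters, 836 with several symbols and 3 with none were left out, and the brightest cluster was kept for 132 genes with several. Members were found by symbol. Groups were compared with two-sided limma tests (version 3.58.1, R 4.3.3), adjusted by Benjamini-Hochberg across 21154 genes and checked on simulated data. Within-tumour differences used exact permutation tests (scipy 1.17.1). With 3 arrays per group their number limits the precision. Members, lists, motifs and chromosomal neighbours were chosen with earlier results of these data known. Genes named from each list are those with the smallest p in each direction, and Sh2d1a, Ptpn11, Il2, Ifng, Cmtm6, Stat6, Il4, Rgmb and Tox were named besides; 1 gene that this rule gives is not reported here. Foxp3, Lck, Stub1 and Tmigd2 were not among the genes tested and were not analysed here. Alternatives were quantile normalization, median centring, a trended robust prior, array weights, expressed genes only, every cluster, a replicate block and leaving out each array.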

Additional observations from a re-analysis of the deposited data

How the results depend on the processing

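No member and no gene of the 8 lists was called, so that these repeats test directions and sizes, not calls. Over all genes the count past the adjusted threshold was 1, and it was 0 after quantile normalization, 0 after median centring and 0 with a replicate block, and between 0 and 4 when 1 array was left out (4 without control replicate 3). The count at unadjusted p under 0.05 was 696 with the replicate block and ran from 1051 to 3164 with 1 array left out, and that of genes without overlap from 5022 to 7115, where fewer arrays make non-overlap more frequent. With array weights, which gave control replicate 3 a weight of 0.341, the difference turned to -0.74 for Ctla4 and -0.23 for Cd86. Replicate numbers 2 and 3 occur in both groups. Same-numbered arrays deviated from their group means with correlations of -0.20 and -0.19 across genes. With 3 arrays per group the deviations constrain each other, so these values cannot settle whether the numbers mark pairs. The sample labels name no pairs, and the numbers were not read as such. With the numbers as a replicate block Icos turned to 0.50. With 1 array left out the log2 difference ran from -0.088 to 0.60 for Pdcd1, -0.87 to 0.27 for Pdcd1lg2, -1.04 to 1.01 for Ctla4, -0.40 to 1.29 for Cd80, -0.475 to 0.655 for Cd86 and -1.06 to 0.73 for Icos, while Cd274 (0.082 to 1.21), Cd28 (-0.82 to -0.077) and Icosl (-1.39 to -0.815) kept their sign. Relative to the CD3 mean it ran from -0.41 to 0.775 for Ctla4 and -0.43 to 0.61 for Icos, and Ctla4 minus Cd28 from -0.22 to 1.085. Cd80 minus Cd86 (0.077 to 0.97) and Cd274 minus Pdcd1lg2 (0.505 to 1.285) stayed above 0. List medians kept their sign for PD-1 proximal signalling (-0.755 to -0.145) and other B7 and CD28 genes (-0.39 to -0.23). They crossed 0 for CD28 signalling (-0.25 to 0.12), CTLA-4 partners (-0.205 to 0.135), interferon gamma (-0.275 to 0.41), PD-L1 handling (-0.11 to 0.21), interleukin 4 and STAT6 (-0.29 to 0.16) and PD-1 regulators (-0.37 to 0.16). Icosl with the replicate block was at -0.78 (unadjusted p of 0.254 by limma). The interleukin 4 median was 0.29 with expressed genes only, which drops Il4, and -0.265 with the replicate block. The cause of these shifts was not tested. Background correction was not varied, since the deposited signals are already summarised.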

Other observations

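Of the other marker lists read for tissue content, skeletal muscle markers were lowest in anti-PD-1 replicate 3, where their mean log2 signal was 8.18, with 12.70 and 12.51 in anti-PD-1 replicates 1 and 2 and 11.17, 13.996 and 11.19 in control replicates 2, 3 and 4, highest in control replicate 3. Mammary markers averaged 4.77 to 5.29 in anti-PD-1 tumours, against 9.03, 10.24 and 4.80 in control replicates 2, 3 and 4. Neutrophil markers averaged 7.05, 6.82 and 6.59 in anti-PD-1 tumours, against 6.81, 6.31 and 6.54 in control tumours, and fibroblast markers 15.04, 15.10 and 13.99 in anti-PD-1 tumours, against 14.88, 16.20 and 16.24 in control tumours. Natural killer cell markers averaged 8.40, 7.49 and 7.81 in anti-PD-1 tumours, against 7.95, 6.365 and 8.09 in control tumours, with the lowest value again in control replicate 3.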
